A study of Homo sapiens with 2 samples.

Results

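Antisense RNA genes carry the name of a neighbouring gene followed by -AS and a number, and 182 of them were expressed in PLC cells, a human liver cancer line, chosen by level alone. A gene was taken when its name was a single symbol ending in -AS and 1 digit, when it was listed in both deposited expression tables, and when its mean FPKM over the 2 tables was at least 0.5, where FPKM is a fragment number divided by the length of the transcript and by the size of the library. Of 945 such names present in both tables, 628 were listed at 0 in both libraries and 135 lay above 0 but under the threshold. By the same level threshold, 10805 genes of all kinds were expressed among 24361 single names in both tables, and these served as the background.

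The study sequenced total RNA of PLC cells carrying an empty vector (EV) and of PLC cells stably expressing PRSS35, a secreted protein of the serine protease family. The labels give the EV cells as wild type and the other cells as PRSS35 over-expression, both untreated. Each condition had 1 library, so that no difference below had a replicate check and no test was made. Whether either line was 1 clone is not given in the sources used here.

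An antisense gene is read from the strand opposite its partner, the sense gene. Some start beside the promoter of the sense gene and run away from it, others run through its exons or lie in its introns. Most of these RNAs code for no protein, and members of the class are known to act on transcription, splicing or RNA stability, either at the partner or elsewhere in the cell.

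PRSS35 itself was listed at 0.643 FPKM in EV (interval 0.445 to 0.841) and at 1836 FPKM in PRSS35, as the labels give it. The interval is the one Cufflinks writes beside each value and covers error within a library only. All 12 hepatocyte markers looked up were found, with a summed level of 8683 FPKM in EV and 9693 in PRSS35. The keratins KRT8 and KRT18 and the serum protein gene SERPINA1 led that sum, whereas albumin (ALB) was at 4.05 and 5.21 FPKM and FGB was under 1 FPKM in both. Markers of endothelium summed to 0.0373 and 0.0307 FPKM and those of fibroblasts and stellate cells to 1.75 and 2.03. Of the blood markers, PTPRC was listed at 0 in both libraries and LYZ stood at 94.0 and 103.7 FPKM. The kit named in the labels is not described as marking strand, and without strand the reads from bases shared by an antisense and a sense gene cannot be told apart.

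Both genes of 168 antisense-sense pairs were found in GENCODE on GRCh37, the assembly also called hg19, and all 168 pairs lay on opposite strands. In 65 pairs the antisense gene started within 1000 bases of the sense gene's start and ran away from it, at a median distance of 166 bases (16 to 907). In 74 the genes shared exon bases without such a start, in 26 the antisense gene lay within or across the sense gene with no shared exon base, and in 3 the genes were apart. RefSeq now names 29 of the 182 genes as divergent transcripts (suffix -DT), 26 of them in the group with a divergent start. RefSeq also lists 2 as protein-coding genes (NCBP2-AS2 as NCBP2AS2 and TOPORS-AS1 as SMIM27) and 3 as transcribed pseudogenes (PSMD5-AS1 as CUTALP, TP73-AS1 as GFOD3P and CDIPT-AS1 as CDIPTOSP).

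The bases between a divergent pair of starts hold what lies before both genes. Of the pairs with a divergent start that were searched, 27 had between 20 and 300 bases between the annotated starts and no overlap of the genes. These regions had a median length of 141 bases (31 to 299) and a median GC content of 72.4% (51.5 to 83.0). The following 7 are shown because their antisense genes span the range of levels relative to the sense gene, from RAB30-AS1 far above it to UBL7-AS1 far below it. They are GRCh37 sequence, read along the sense gene's strand, which is the minus strand for all 7, and exclude the start bases. Capitals mark 4 motifs on either strand: the GC box, spelled GGGCGG, the CCAAT box, spelled as its name, the TATA box, spelled TATAAA, and the ETS site, spelled CCGGAA. On the other strand each is read as its reverse complement. Motifs were searched separately, so that matches of different motifs may share bases.
RAB30-AS1: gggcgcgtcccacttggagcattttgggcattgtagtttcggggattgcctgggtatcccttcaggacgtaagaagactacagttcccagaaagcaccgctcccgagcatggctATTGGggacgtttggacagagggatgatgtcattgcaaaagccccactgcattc
NCBP2-AS2: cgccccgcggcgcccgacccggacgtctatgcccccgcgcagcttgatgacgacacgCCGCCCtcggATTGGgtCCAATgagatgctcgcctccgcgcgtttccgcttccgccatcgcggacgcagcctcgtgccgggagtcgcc
URB1-AS1: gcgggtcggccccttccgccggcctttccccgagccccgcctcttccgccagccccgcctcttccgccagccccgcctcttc
RNASEH1-AS1: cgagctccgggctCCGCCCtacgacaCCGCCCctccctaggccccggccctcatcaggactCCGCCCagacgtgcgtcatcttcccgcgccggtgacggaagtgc
BOLA3-AS1: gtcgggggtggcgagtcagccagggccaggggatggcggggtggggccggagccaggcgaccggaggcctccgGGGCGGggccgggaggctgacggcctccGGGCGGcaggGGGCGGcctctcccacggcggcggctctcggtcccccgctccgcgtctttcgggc
SRP14-AS1: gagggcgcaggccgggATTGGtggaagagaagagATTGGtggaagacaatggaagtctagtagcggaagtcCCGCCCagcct
UBL7-AS1: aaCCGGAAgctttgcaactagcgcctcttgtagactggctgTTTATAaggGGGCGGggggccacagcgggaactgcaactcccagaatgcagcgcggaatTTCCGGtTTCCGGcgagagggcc
The region of RAB30-AS1 is chr11:82782940-82783107, that of NCBP2-AS2 chr3:196669400-196669544, that of URB1-AS1 chr21:33765322-33765403 and that of RNASEH1-AS1 chr2:3605924-3606028. The region of BOLA3-AS1 is chr2:74375040-74375205, that of SRP14-AS1 chr15:40331383-40331464 and that of UBL7-AS1 chr15:74753502-74753624. The starts are those of GENCODE's canonical transcripts, and the deposited loci of some genes, such as NCBP2-AS2, begin inside these bases. A GC box was found in 18 of the 27 regions, a CCAAT box in 9, an ETS site in 7 and a TATA box in 1, that of UBL7-AS1. URB1-AS1 held none of the 4 motifs, and RNASEH1-AS1 and BOLA3-AS1 held 3 GC boxes each.

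The pairs shown differed widely in which gene was higher. RAB30-AS1, beside a small GTPase of the Golgi, stood at 14.8 FPKM in EV and 14.1 in PRSS35 against 0.242 and 0.281 for RAB30. NCBP2-AS2 stood at 42.2 and 45.4 FPKM against 11.6 and 13.5 for NCBP2, a subunit of the nuclear cap-binding complex. In both of these pairs the antisense gene was the higher in each library.

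In the next 2 pairs the genes were closer in level. URB1-AS1 was at 13.7 and 18.1 FPKM and URB1, a ribosome biogenesis factor, at 9.48 and 9.07. RNASEH1-AS1 was at 21.7 and 23.9 FPKM, below RNASEH1 (31.9) in EV and above it (19.5) in PRSS35. RNASEH1 encodes an enzyme that removes RNA from RNA-DNA hybrids.

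BOLA3-AS1 was at 8.89 and 6.69 FPKM against 79.4 and 90.7 for BOLA3, a mitochondrial factor of iron-sulfur cluster assembly. SRP14-AS1 was at 5.12 and 6.44 FPKM against 149.8 and 163.0 for SRP14, a subunit of the signal recognition particle. UBL7-AS1 was at 3.42 and 4.12 FPKM against 163.8 and 138.1 for UBL7. These 3 antisense genes stood below their sense genes in both libraries.

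Promoter windows of 300 bases (250 before and 50 after the start) were found in RefSeq's table on GRCh38.p14 for 132 of the 182 genes. A GC box was present in 64.4% of them, a CCAAT box in 37.1%, an ETS site in 21.2% and a TATA box in 3.03%. Over all 27305 promoters of the table the shares were 44.6%, 35.7%, 17.6% and 12.0%, and over the 15842 promoters of protein-coding genes they were 58.5%, 36.4%, 22.9% and 9.63%. Over the 11462 promoters of long noncoding RNA genes they were 25.35%, 34.8%, 10.4% and 15.2%. The 132 windows belong to genes chosen for their level in PLC cells, while these 3 larger sets hold promoters of genes expressed there or not. The part of expression in the shares was not tested. Among genes with a divergent start, 81.6% of 49 windows held a GC box, and among the other arrangements 55.3% of 76 did. With a median of 166 bases between divergent starts, such a window can also hold the promoter of the sense gene. The presence of these letters is a description of the windows and was not tied to any factor.

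Expression of the antisense genes was low and uneven. The mean FPKM over both libraries had a median of 2.54, with quartiles of 1.17 and 5.71 and a range from 0.537 to 227.8, while the median over the 10805 expressed genes was 7.24. A mean of at least 1 FPKM was reached by 150 genes, at least 5 by 53, at least 10 by 21 and at least 50 by 4. Their FPKM summed to 1318.8 in EV and 1409.8 in PRSS35, and PCNA-AS1, STARD7-AS1 and AGAP2-AS1 together made up 34.0% of the sum in each. The number of fragments implied by the Cufflinks interval had a median of 71.9 per gene in EV (quartiles 27.4 and 143.0) and 82.9 in PRSS35 (32.0 and 181.0). This number is set by the width of the interval relative to the FPKM and is not a read count. The lower bound was 0 for 6 genes above 0 in EV and for 5 in PRSS35.

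Level chose the members, and the genes next to the threshold show where it fell. Just inside were SNRK-AS1 (0.692 FPKM in EV and 0.381 in PRSS35), DHRS4-AS1 (0.462 and 0.612) and RBMS3-AS3 (0.653 and 0.423). Just outside were NEXN-AS1 (0.363 and 0.632), BEAN1-AS1 (0.987 and listed at 0) and USP46-AS1 (0.370 and 0.583).

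The most abundant antisense gene was PCNA-AS1, at 224.8 FPKM in EV (206.2 to 243.4) and 230.9 in PRSS35 (211.9 to 249.9). PCNA, the sliding clamp of DNA replication, was at 61.2 and 74.1. The deposited locus of PCNA-AS1, chr20:5100232-5100615 on hg19, is 384 bases long, and 97.1% of it lies in an exon of PCNA. FBXO22-AS1, at 16.96 and 19.2 FPKM, had a locus of 448 bases at chr15:76225024-76225471, of which 99.6% lies in an exon of FBXO22, an F-box gene at 8.18 and 12.6. How much of the level of these genes came from sense RNA was not tested.

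STARD7-AS1 (chr2:96874154-96908362) followed, at 124.3 FPKM in EV (111.9 to 136.7) and 154.3 in PRSS35 (140.0 to 168.7), with 9.28% of its annotated exon bases in exons of STARD7. STARD7, a lipid transfer protein gene, was at 30.8 and 36.0 FPKM. AGAP2-AS1 (chr12:58120023-58122139) stood at 99.0 and 94.1 FPKM, and AGAP2, a regulator of Arf GTPases, was listed at 0 in both libraries. Of the exon bases of AGAP2-AS1, 57.7% lie in exons of AGAP2 and 100% in exons of coding genes, so that its reads cannot be told apart from theirs by strand. PIK3CD-AS2 (chr1:9732484-9747632) was at 78.7 and 71.4 against 5.29 and 5.67 for PIK3CD, a catalytic subunit of phosphoinositide 3-kinase.

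The next genes in order of level lay below PIK3CD-AS2. ARRDC1-AS1 was at 38.8 and 34.8 FPKM, below ARRDC1 at 72.3 and 68.8. DSCAM-AS1 was at 22.9 and 31.0, with the neural adhesion gene DSCAM listed at 0 in EV and 0.00478 in PRSS35. GATA2-AS1 was at 20.3 and 28.2, and the transcription factor gene GATA2 at 18.5 and 18.7. UPK1A-AS1 was at 16.7 and 22.4 (UPK1A 5.59 and 5.11), and PRRT3-AS1 at 16.9 and 14.7 (PRRT3 2.84 and 3.65). Among the 15 most abundant, 13 had a mean above that of their sense gene, and 14 differed by less than 2-fold between the libraries.

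**Figure D1:**
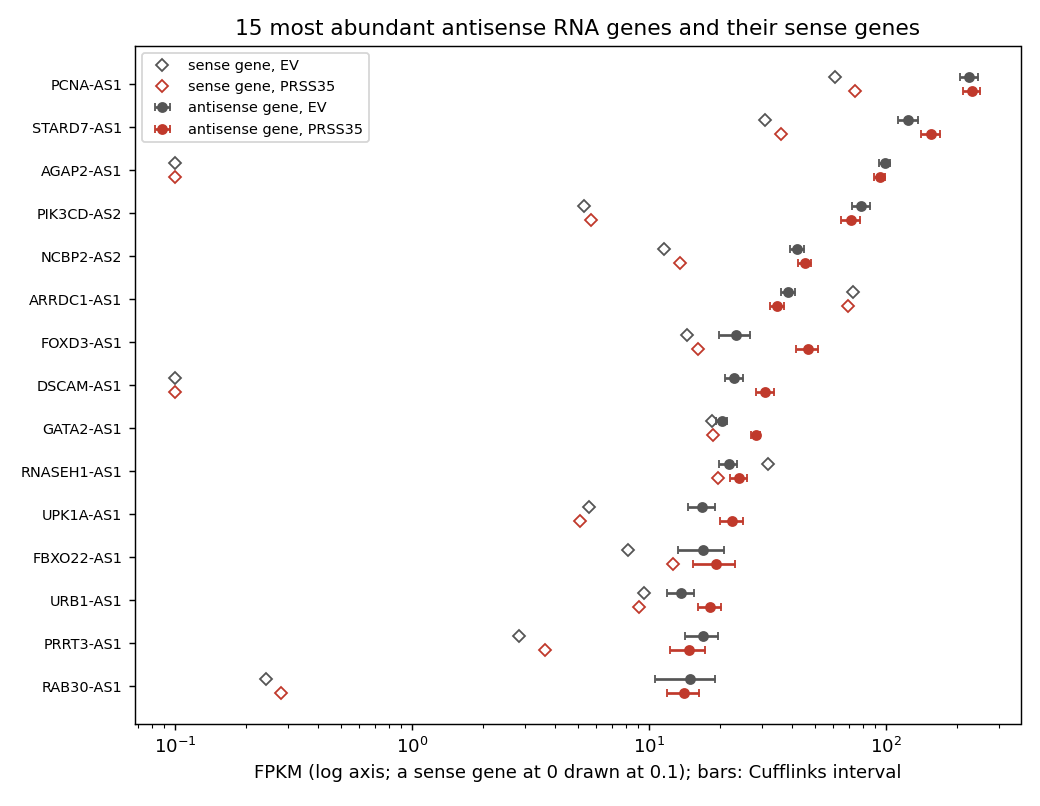
FPKM of the 15 most abundant antisense RNA genes (filled circles with the Cufflinks interval as bars) and of their sense genes (open diamonds) in EV and PRSS35, 1 library each, on a log axis where a sense value below 0.1 is drawn at 0.1. For 13 of the 15 the antisense mean lay above the sense mean, and FOXD3-AS1 had the largest fold between the libraries, from 23.2 to 46.7 FPKM.

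A value for the sense gene under its own name was available for 171 of the 182 genes. The antisense gene was the higher of the pair for 83 in EV (48.5%) and 92 in PRSS35 (53.8%), 74 of them in both libraries, 9 in EV alone and 18 in PRSS35 alone. For 70 pairs it was not above the sense gene in either library. The sense gene was listed at 0 in 19 pairs in EV and 17 in PRSS35. In these counts a 0 of either gene was taken as a level, though in these tables a 0 can be a failed estimate. IQCH-AS1 and TRIM52-AS1, for example, were above the sense gene in EV alone because they were listed at 0 in PRSS35. Where both were above 0, the median log2 ratio of antisense over sense, taken on FPKM + 0.1, was -0.32 in EV (146 pairs, range -7.03 to 5.68) and 0.22 in PRSS35 (143 pairs, -7.13 to 8.21). Since members were chosen for a mean of at least 0.5 FPKM and sense genes were not, these counts describe expressed antisense genes and no others.

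Over the 131 pairs with all values above 0, Spearman's correlation of the antisense with the sense level was 0.36 in EV and in PRSS35. These are correlations across genes within a library, which share depth and are not independent replicates.

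The order of the partners was also counted by arrangement. Of the antisense genes with a divergent start, 22 of 62 were above the sense gene in EV and 24 in PRSS35, and their sense genes had a median of 3.74 FPKM. Of those with shared exon bases, 44 of 72 were above it in EV and 47 in PRSS35, with a sense median of 1.34. Of those within or across the sense gene without a shared exon base, 9 of 25 and 13 of 25 were. The antisense medians of these 3 groups were 2.40, 2.51 and 2.35 FPKM. Of the 168 antisense genes placed with their sense gene, 99 shared at least 1 exon base with it. At least 50% of the exon bases lay in its exons for 10. Not placed and left out were PCNA-AS1, FBXO22-AS1, HNRNPU-AS1 and HIF1A-AS2, with 97.1%, 99.6%, 87.3% and 59.5% of the locus in sense exons. FRMD6-AS1, STX17-AS1, SVIL-AS1 and RAET1E-AS1, also not placed, had at most 12.8%. Across 150 of the placed genes, Spearman's correlation of the share of exon bases in sense exons with the log2 ratio was 0.17.

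**Figure D2:**
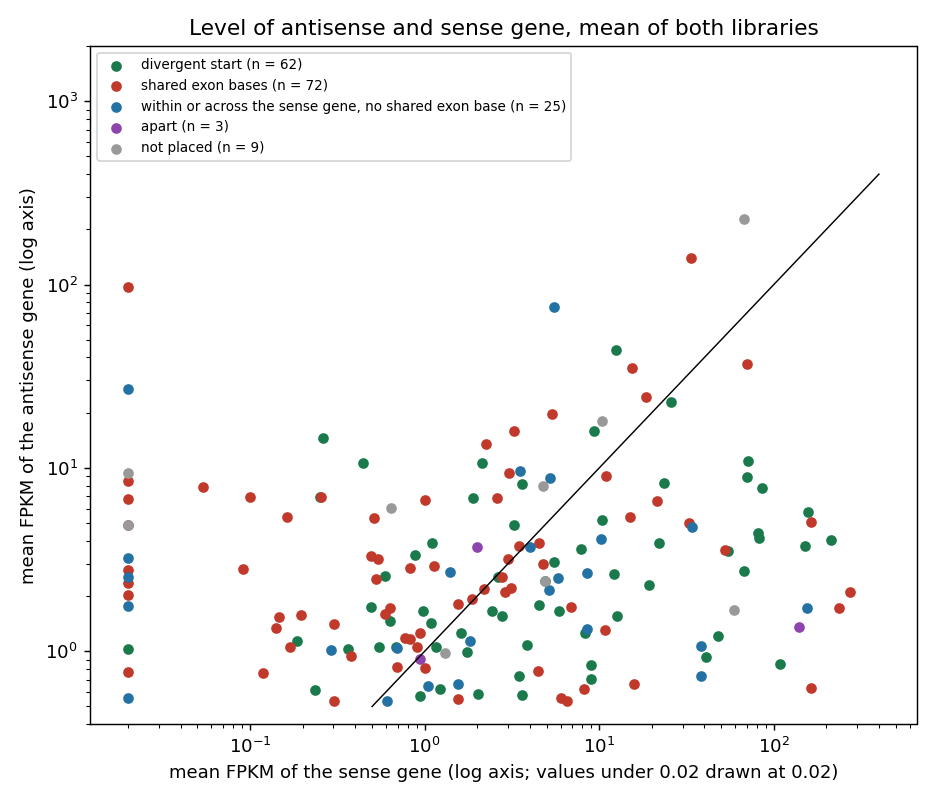
Mean FPKM over both libraries of the antisense gene against that of its sense gene, both on log axes, for 171 pairs coloured by arrangement, with the line of equal level and sense values under 0.02 drawn at 0.02. Points lie on both sides of the line, and those of pairs with shared exon bases had a sense median of 1.34 FPKM against 3.74 for pairs with a divergent start.

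In some pairs the partners differed by a large factor in both libraries. EPB41L4A-AS1 was at 8.32 and 7.49 FPKM against 0.0646 and 0.0430 for EPB41L4A. MAGI2-AS3 was at 4.19 and 6.51 against 0.511 and 0.513 for MAGI2, a scaffold protein gene. FGD5-AS1 was at 6.45 and 7.05, with FGD5 listed at 0 in EV and 0.0113 in PRSS35. All 3 were higher than their sense gene in each library.

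The reverse held for antisense genes of highly expressed partners. HM13-AS1 was at 2.23 and 1.99 FPKM against 267.7 and 280.7 for HM13, which encodes signal peptide peptidase. PTOV1-AS1 was at 1.93 and 1.53 against 244.2 and 228.6 for PTOV1. ID2-AS1 was at 0.840 and 0.863 against 98.7 and 117.0 for ID2, an inhibitor of basic helix-loop-helix factors. NDUFV2-AS1 was at 1.86 and 1.60 against 153.1 and 158.1 for NDUFV2, a subunit of respiratory complex I. Each antisense gene was thus well under its partner in both libraries.

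Of the 11 genes without a sense value, 4 are named for a HOX cluster and not for 1 gene. HOXD-AS2 was at 12.2 and 15.8 FPKM, HOXA-AS2 at 6.13 and 4.88, HOXC-AS1 at 5.03 and 5.55 and HOXC-AS2 at 0.727 and 0.509. For 5 others the sense gene was listed only in a locus that joins several names, such as CHKB in a locus at 10.1 and 7.44 FPKM.

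From EV to PRSS35, 19 of the 182 antisense genes differed by 2-fold or more, and 22 others were listed at 0 in 1 library. A gene was called when it was above 0 in both libraries and its log2 change, taken on FPKM + 0.1, was at least 1 in size. By this rule 11 of 182 were higher in PRSS35 (6.04%), beside 2.14% of the 10805 expressed genes, and 8 were lower (4.40%), beside 1.82%. In either direction this made 10.4%, beside 3.96% of the expressed genes and 17.6% of 102 expressed LINC genes, a class of intergenic noncoding RNAs. Whether these shares differ was not tested. The expressed genes had higher levels, and the called share of antisense genes varied with level. It was 15.6% at 0.5 to 1 FPKM, 10.9% at 1 to 2, 9.80% at 2 to 5, 6.25% at 5 to 10 and 9.52% at 10 or more. The called genes had 11 of 19 in the higher direction (57.9%), which became 94.1% when FPKM was divided by its sum in each library (48 higher and 3 lower). That scaling moved the median over expressed genes, again in log2, from 0.08 to 0.77. With changes centred on the median of all expressed genes the split was 8 higher and 10 lower, and with upper-quartile scaling it was 8 and 9.

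Among the 160 genes above 0 in both libraries, 88 were numerically higher and 72 lower in PRSS35, and 70 differed by less than 1.2-fold. Their median log2 change was 0.05 (quartiles -0.21 and 0.36), beside 0.08 (-0.12 and 0.26) over expressed genes. Pearson's correlation of their log2 levels between the libraries was 0.91. The Cufflinks intervals of the 2 libraries did not overlap for 22 higher (12.1%) and 14 lower genes (7.69%), beside 22.4% and 12.4% of expressed genes. The expressed genes had higher levels, and separate intervals varied with level among the antisense genes. There were 0 higher and 3 lower of 32 at 0.5 to 1 FPKM, and 8 higher and 1 lower of 21 at 10 or more. A call and separate intervals together were met by 5 higher and 6 lower genes, and 8 of the 19 called genes had overlapping intervals. The share of expressed genes that met both was not counted.

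**Figure D3:**
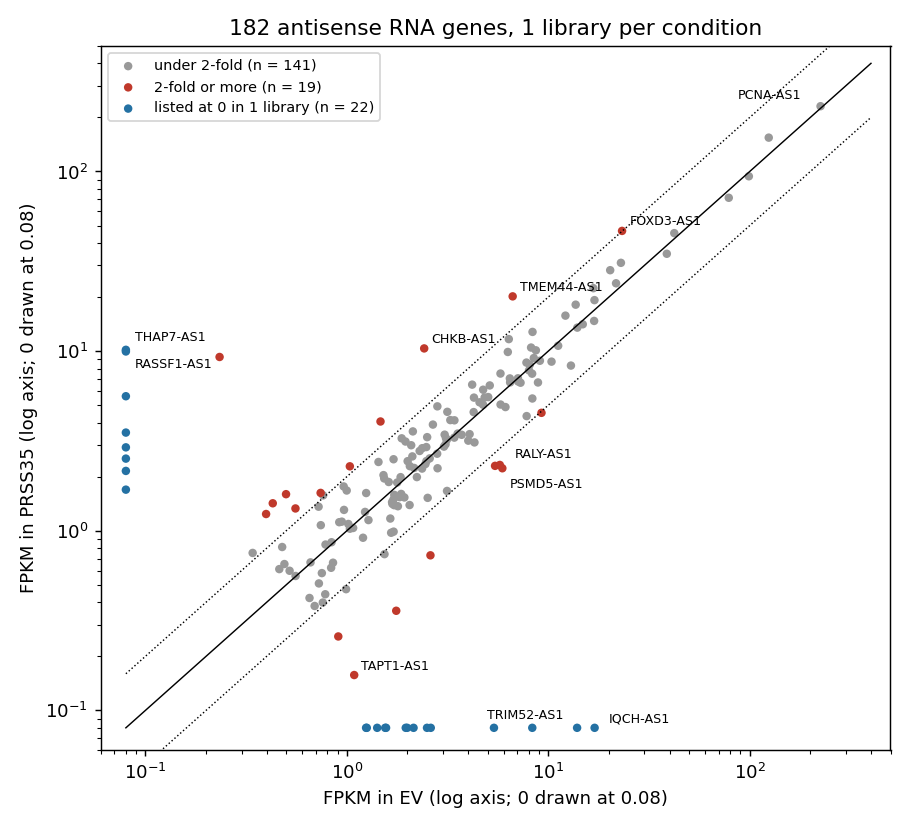
FPKM in PRSS35 against FPKM in EV for the 182 antisense RNA genes, 1 library per condition, both on log axes with 0 drawn at 0.08, the line of equal level and dotted lines at a 2-fold ratio. The 19 genes called on FPKM + 0.1 lie outside or at the dotted lines, and 22 genes listed at 0 in 1 library lie along the edges.

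CHKB-AS1 (chr22:51021299-51033710), beside a choline kinase gene, was at 2.42 FPKM in EV (1.84 to 3.002) and 10.4 in PRSS35 (8.53 to 12.2), a log2 change of 2.05. TMEM44-AS1 (chr3:194304739-194311561) was at 6.66 (4.91 to 8.41) and 20.2 (14.8 to 25.6), a log2 change of 1.59, while TMEM44 was at 2.31 and 2.202. TMC3-AS1 was at 1.47 and 4.06, a log2 change of 1.41, and TMC3 was listed at 0 in both libraries. These 3 rose in FPKM with intervals that did not overlap. The implied fragments went from 69.4 to 129.4 for CHKB-AS1 and from 35.1 to 103.3 for TMC3-AS1. For TMEM44-AS1 they were 57.9 in EV and 55.8 in PRSS35, while its FPKM was higher in PRSS35. Being taken from the interval, they are not read counts.

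FOXD3-AS1 (chr1:63786555-63790112) stood at the threshold, at 23.2 FPKM in EV (19.7 to 26.8) and 46.7 in PRSS35 (41.9 to 51.5), a log2 change of 1.00. FOXD3, a forkhead transcription factor gene, was at 14.5 and 16.1, and 27.6% of the exon bases of FOXD3-AS1 lie in its exon. Its implied fragments were 175.6 and 376.2. FOXD3-AS1 was the most abundant of the called genes.

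A further 6 called higher were all under 2.5 FPKM and had overlapping intervals. They were LCMT1-AS1 (0.429 to 1.42 FPKM), TMEM161B-AS1 (0.499 to 1.60), TAF1A-AS1 (0.397 to 1.24), TAT-AS1 (0.556 to 1.33), KANSL1-AS1 (1.03 to 2.28) and SBF2-AS1 (0.741 to 1.62). The lower bound was 0 for LCMT1-AS1 and TAT-AS1 in EV and for SBF2-AS1 in PRSS35.

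Of the genes called lower, PSMD5-AS1 and RALY-AS1 were the more abundant ones with separate intervals. PSMD5-AS1 (chr9:123605194-123616651) was at 5.92 FPKM in EV (5.18 to 6.65) and 2.23 in PRSS35 (1.95 to 2.51), a log2 change of -1.37. Its implied fragments were 256.0 in EV and 256.3 in PRSS35, and these are taken from the interval and are not read counts. PSMD5, a chaperone of proteasome assembly, was at 9.68 and 10.8. RALY-AS1 (chr20:32580214-32582173) was at 5.75 (4.28 to 7.22) and 2.32 (1.44 to 3.21), a log2 change of -1.27, with 61.3 and 27.7 implied fragments. RALY, which encodes an RNA-binding protein of the hnRNP family, was at 258.2 and 166.2 FPKM.

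TAPT1-AS1 had the largest fall, from 1.09 FPKM (0.624 to 1.55) to 0.157 (0.0537 to 0.261), a log2 change of -2.21. ZNF436-AS1, beside a zinc finger gene, was at 1.76 and 0.359 (log2 change -2.02), SCOC-AS1 at 2.60 and 0.730 (-1.70), and RBM26-AS1 at 0.907 and 0.258 (-1.49). These 4 fell in FPKM with intervals that did not overlap. The implied fragments were 21.99 in EV and 9.22 in PRSS35 for TAPT1-AS1, 23.1 and 8.12 for ZNF436-AS1 and 26.8 and 19.5 for RBM26-AS1. For SCOC-AS1 they were 13.1 and 39.5, higher in PRSS35 while the FPKM was lower. The part of fragment assignment and of the assembled transcripts in these differences was not tested.

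The intervals of USP2-AS1 and CDC37L1-AS1 overlapped. USP2-AS1, beside a deubiquitinase gene, was at 5.44 FPKM in EV, with an interval of 0 to 38.2, and at 2.30 in PRSS35. CDC37L1-AS1 was at 9.25 (0 to 19.997) and 4.54 (0 to 12.4). For both, the EV interval was wider than the difference between libraries.

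A further 25 genes had separate intervals but differed by less than 2-fold, 17 higher and 8 lower in PRSS35. The higher ones had log2 changes from 0.31 (STARD7-AS1) to 0.96 (MATN1-AS1). Among them were ZNF213-AS1 (6.37 and 11.7 FPKM), YTHDF3-AS1 (8.35 and 12.8), RPARP-AS1 (6.30 and 9.89), MAGI2-AS3, GATA2-AS1, DSCAM-AS1, UPK1A-AS1 and URB1-AS1. OSER1-AS1, SCAMP1-AS1, JHDM1D-AS1, ASH1L-AS1, LIMD1-AS1, RHPN1-AS1 and MAPKAPK5-AS1 make up the rest. The lower ones had log2 changes from -0.46 (FOXD2-AS1, 4.30 and 3.10) to -0.96 (MCM8-AS1), and included GABPB1-AS1 (13.0 and 8.31), FRMD6-AS1 (7.81 and 4.35), ZNF503-AS2 (8.34 and 5.45), SEPT7-AS1, THAP9-AS1 and SNRK-AS1.

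A value of 0 in 1 library was listed for 22 of the antisense genes (12.1%), beside 1.88% of the expressed genes and 4.9% of 102 expressed LINC genes. In EV this was so for 8 genes (4.40%), beside 0.907%, and in PRSS35 for 14 (7.69%), beside 0.972%. In these tables a 0 can be a failed estimate, so that no fold is given. The value in the other library ranged from 1.246 to 16.99 FPKM and was at least 5 FPKM for 7 of the 22. Members needed a mean of at least 0.5 FPKM, so these genes were members only through the other library. The low end of that range was thus set by the threshold. Of the 22, 8 were among the 32 genes with a mean of 0.5 to 1 FPKM. In 17 of the 22 the locus with the value of 0 was one assembled from the reads, and among the 203 such expressed genes this was so for 153.

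Listed at 0 in PRSS35 were IQCH-AS1 (16.99 FPKM in EV), TRIM52-AS1 (13.9, interval 12.2 to 15.6), NDUFA6-AS1 (8.33), SP2-AS1 (5.37), SIX3-AS1 (2.61), SGOL1-AS1 (2.50) and 8 others at 1.246 to 2.14 in EV. The sense genes NDUFA6, a subunit of complex I, and SP2, a transcription factor, were at 77.2 and 88.0 FPKM and at 8.60 and 8.41. TRIM52, a ubiquitin ligase gene, was at 0.505 in EV and also listed at 0 in PRSS35. Listed at 0 in EV were THAP7-AS1 (10.2 FPKM in PRSS35), RASSF1-AS1 (9.96), MYLK-AS1 (5.61) and ZBTB46-AS1 (3.52), with 4 others at 1.69 to 2.91. RASSF1, a tumour suppressor gene whose exons hold 83.4% of the exon bases of RASSF1-AS1, was at 36.7 and 28.4. In 17 of the 22 pairs the sense gene was above 0 in both libraries, with log2 changes from -0.41 to 0.88, so that 0 of these 17 sense genes differed by 2-fold.

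Antisense and sense genes were compared for a shared direction of change over the 131 pairs with all 4 values above 0. Pearson's correlation of the log2 changes was 0.10 and Spearman's 0.14, and 72 pairs had the same sign. The points share the 2 libraries and their depth. The median size of the log2 change was 0.33 for the antisense and 0.17 for the sense genes. Of the 17 called antisense genes in these pairs, 1 had a sense gene that also differed by 2-fold. It was CDC37L1-AS1, with CDC37L1, which is related to an HSP90 co-chaperone, at 2.92 and 0.862 FPKM, where the starts lie 32 bases apart and both genes were lower in PRSS35. Across the 17, the median size of the sense log2 change was 0.20.

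A sense gene differed by 2-fold in 7 of the 131 pairs, 1 higher and 6 lower in PRSS35. TOLLIP, a Toll-interacting adaptor gene, was at 49.5 and 112.2 FPKM, with TOLLIP-AS1 at 4.26 and 4.58. PARD6G, a cell polarity gene, was at 8.60 and 1.86, with PARD6G-AS1 at 8.48 and 9.15. ERICH6 was at 5.05 and 1.17, with ERICH6-AS1 at 2.004 and 2.44. In these 3 pairs the sense gene differed by 2-fold and the antisense gene by less than that. CDC37L1, CA3, ZNF667 and RBMS3 were the others.

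**Figure D4:**
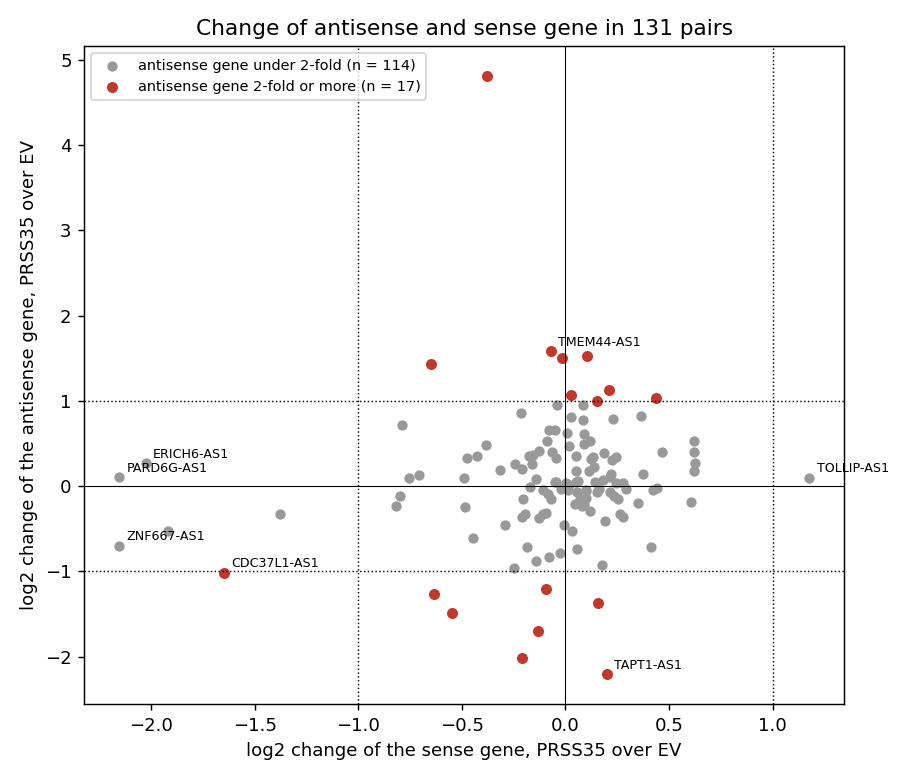
Log2 change (PRSS35 over EV, on FPKM + 0.1) of the antisense gene against that of its sense gene for 131 pairs with all values above 0, with dotted lines at 2-fold. Of 17 called antisense genes (red), 16 lie between the vertical lines, where the sense gene differed by less than 2-fold, and CDC37L1-AS1 is the exception.

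By arrangement, genes with a divergent start had 3 called higher and 5 lower of 65. Those with shared exon bases had 6 higher and 2 lower of 74, and those within or across the sense gene 2 higher and 1 lower of 26. In either direction these were 12.3%, 10.8% and 11.5%, beside 10.4% of the 182 genes and 3.96% of the expressed genes. Whether the direction differed between the groups was not tested. Values of 0 in 1 library were listed for 9, 9 and 3 genes of these groups. The median log2 change of the genes above 0 in both libraries was 0.04, 0.06 and 0.01.

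Cufflinks kept the annotated identifier for some loci and gave an identifier of its own to loci assembled from the reads, and the calls differed between these groups. Of the 182 genes, 49 kept the annotated identifier in both libraries, and in these 0 were called higher and 1 lower (CDC37L1-AS1). Where the locus was assembled in PRSS35 only, 5 of 27 were higher and 1 was lower, with a median log2 change of 0.36 among those above 0. Where it was assembled in EV only, 0 of 10 were higher and 2 were lower, with a median of -0.30. Where it was assembled in both, 6 of 96 were higher and 4 lower, with a median of -0.02. Among the expressed genes, loci with the annotated identifier in both libraries had 24 higher and 22 lower of 2799, and those assembled in both had 124 higher and 110 lower of 5585. Loci assembled in PRSS35 only had 80 higher and 1 lower of 1257, and those assembled in EV only had 3 higher and 64 lower of 1164. The part of assembly in the changes of single genes was not tested, nor was the part of a gene's level in whether its locus was assembled.

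**Figure D5:**
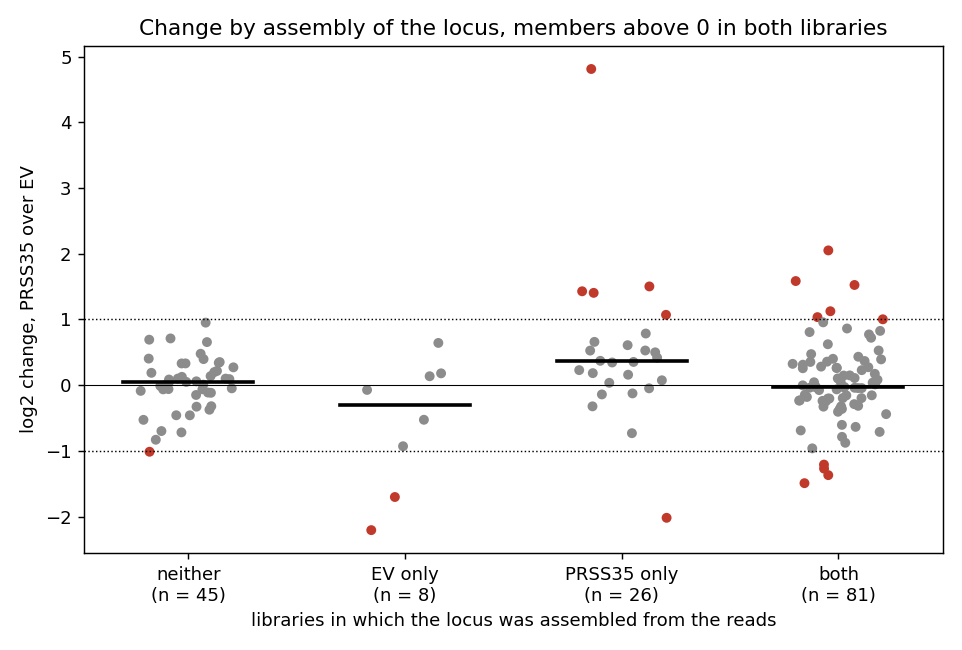
Log2 change (PRSS35 over EV, on FPKM + 0.1) of the 160 antisense RNA genes above 0 in both libraries, by the libraries in which the locus was assembled from the reads, with a black bar at each median and called genes in red. The median was 0.36 for loci assembled in PRSS35 only and -0.30 for those assembled in EV only, and 1 of the 45 genes assembled in neither was called.

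Of a list of 35 antisense RNAs that are well studied in cancer or elsewhere, 34 were in both tables, 16 were among the 182 and 15 were listed at 0 in both libraries. OIP5-AS1 was at 6.47 and 6.70 FPKM, TMPO-AS1 at 3.72 and 3.42 and HIF1A-AS2 at 2.45 and 2.35. ZEB1-AS1 was at 1.203 and 0.914, PSMA3-AS1 at 0.836 and 0.622, SLC25A25-AS1 at 0.520 and 0.599 and ZNF561-AS1 at 0.490 and 0.653. All 7 differed by less than 2-fold. SBF2-AS1 was among those called, and TRIM52-AS1 was listed at 0 in PRSS35. The 15 listed at 0 in both included EGFR-AS1, AFAP1-AS1, GAS6-AS1 and VIM-AS1.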

How the data were processed

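RNA of 2 libraries, 1 per condition, was sequenced by the authors on an Illumina instrument and aligned to hg19. TopHat2 2.1.0 and Cuffdiff 2.2.1 are named in the submitters' processing notes, and the study's methods name Cufflinks. A second build, dm6, is listed there with no role, and the annotation release is not given in the sources used here. The deposited tables hold FPKM per locus, which the authors' run scaled by transcript length and mapped fragments, with a lower and an upper bound. No read counts were used, total depth was not in these tables, and every locus of the 182 genes had the status OK.

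Loci with the same single name were summed, and joined names were left out. The FPKM of a short locus rests on a small effective length, and reads shared by overlapping genes are divided by the model. Changes are log2 of FPKM + 0.1 in PRSS35 over EV. Implied fragments were taken from the bounds, by squaring 2 times FPKM divided by the upper bound less FPKM, and they fall where assignment was uncertain. Gene models, strands and canonical starts came from GENCODE release 44 lifted to GRCh37, and 174 of the 182 genes were found there. Current names and promoters came from RefSeq. Sequences of some loci were not analysed here, and the values of some genes are counted but not reported here. Python 3.11.15, numpy 2.4.6, pandas 2.3.3 and matplotlib 3.10.9 were used. The code that makes the calls was run on simulated data with counting noise only. That run held no variation between cultures, no assembly and no read assignment, so it cannot say how reliable the calls reported here are.

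The members and lists were chosen with earlier results of these data known. Genes were named by level (the 15 highest), by call or separate intervals, by a value of 0 in 1 library, by lying next to the threshold, or as members of the list of 35. Those named for large ratios to the sense gene, for the sequences shown, for the HOX clusters and for changed sense genes were chosen after their values were seen. Alternatives were pseudocounts of 0.5 and 1 FPKM, 3 other scalings, the highest locus per name, other thresholds, loci with the annotated identifier, and genes without shared exon bases. An alternative kept only genes above 0 in both libraries and was chosen once the data were known.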

Additional observations from a re-analysis of the deposited data

How the results depend on the processing

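Of the 11 genes higher and 8 lower in PRSS35, a pseudocount of 1 FPKM left 4 and 4, and one of 0.5 FPKM left 6 higher. Dividing FPKM by its sum gave 48 higher and 3 lower and a median log2 change of 0.73, beside 20.1% higher and 0.731% lower among expressed genes. A threshold of 1.5-fold gave 26 and 20. Asking for separate intervals beside the 2-fold rule left 5 higher. For the pseudocounts, the 1.5-fold threshold and this joint rule, the shares over expressed genes were not counted. The 49 genes with the annotated identifier in both libraries had 0 higher and 1 lower, and the 69 genes with no shared exon base had 3 and 5. In the former, 23 of 46 were above the sense gene in EV and 27 in PRSS35. The other scalings, the highest locus per name, a mean of at least 1 FPKM, no filter and the restriction to genes above 0 in both libraries, the last chosen after seeing the data, kept these counts within 1.5 times. For 53 named genes under 5 alternatives, 81 of 265 log2 changes moved by more than a spread taken from the Cufflinks intervals. The sign changed in 10, of which 8 came with division by the sum. Where an interval was very wide, as for USP2-AS1 in EV, no alternative moved the change by more than that spread.

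No paired analysis was possible because EV and PRSS35 were sequenced as 1 library each. Of the 19 called genes, 8 had overlapping intervals. Variation between cultures was not measured.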
